A study of Mus musculus with 3 samples.

Results

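The genes described are 10 heat shock genes of the cytosol and the mitochondrion: Hspa1a, Hspa1b, Hspa8, Hsp90aa1, Hsp90ab1, Hsph1, Dnajb1, Hspb1, Hspd1 and Hspe1. They were taken by symbol from the 22658 gene models of each library, and all 10 were found. Their nascent RNA was measured by Bru-seq, which labels RNA with bromouridine, pulls the labelled RNA down and sequences it, in NB490, a mouse pancreatic cancer line that was selected with puromycin for a doxycycline-inducible shRNA against PDX1. The 3 libraries came from cells at 0 h of doxycycline (uninduced), at 48 h of doxycycline, and after growing out under the drug for more than 3 weeks. All 3 carried the shRNA and took up 2 mM bromouridine for 30 min. Each condition had 1 library, so differences below compare libraries, with intervals that cover counting error only and no replicate check. Doxycycline given to cells without the shRNA was not analysed here, so effects of the drug and of the shRNA cannot be told apart.

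Heat shock proteins are chaperones: they bind unfolded proteins, hold them in solution and help them fold. HSP70 proteins bind short stretches of client protein in a cycle driven by ATP, with J-domain proteins such as the product of Dnajb1 delivering clients and HSP110 proteins such as that of Hsph1 exchanging the nucleotide, while HSP90 takes over many signalling proteins at a later stage of folding. In the mitochondrion, HSP60 forms a barrel that encloses clients, with HSP10 as its lid. Some of these genes are transcribed in all cells, and others, Hspa1a and Hspa1b first among them, are switched on by the factor HSF1 when proteins unfold. HSF1 binds heat shock elements, inverted repeats of the unit GAA.

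The promoter sequences show where matches to such elements lie, with the matched bases shared in 1 pair of these genes and near-copied starts in another. RefSeq windows of 300 bases (250 before to 50 after a transcript start, build GRCm38.p6) matched 7 of the 10 genes, some with 2 starts; Hspa8, Hsp90aa1 and Hsp90ab1 had no entry. Searched were the 2-unit motifs GAANNTTC and TTCNNGAA and the 3-unit motifs GAANNTTCNNGAA and TTCNNGAANNTTC. The set is its own reverse complement, so both strands are covered, and each 3-unit match also holds 2-unit matches. Of all 32851 windows in the table, 15.1% held a 2-unit motif and 0.603% a 3-unit motif. By gene symbol, 4587 of 27025 had a window with a 2-unit motif and 179 one with a 3-unit motif. Of the 10 windows of the 7 genes, 7 held a 2-unit motif. By gene, 6 had a 2-unit motif and 3, Hspd1, Hspe1 and Hsph1, a 3-unit motif. Hspd1 and Hspe1 share the same matched bases, and Hspa1a and Hspa1b are near copies, so these genes are not independent. Neither Dnajb1 window held any of them. Hspa1a and Hspa1b are shown because their starts are near copies. The stretches run from 200 bases before the start to the start, on the minus strand, at chr17:34972157-34972356 and chr17:34959239-34959438. Capitals mark the motif match, which begins at position -104 from the start in both genes.
Hspa1a: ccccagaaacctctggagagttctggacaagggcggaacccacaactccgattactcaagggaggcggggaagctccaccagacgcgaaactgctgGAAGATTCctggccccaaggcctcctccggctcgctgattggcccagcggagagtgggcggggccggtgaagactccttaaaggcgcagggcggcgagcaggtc
Hspa1b: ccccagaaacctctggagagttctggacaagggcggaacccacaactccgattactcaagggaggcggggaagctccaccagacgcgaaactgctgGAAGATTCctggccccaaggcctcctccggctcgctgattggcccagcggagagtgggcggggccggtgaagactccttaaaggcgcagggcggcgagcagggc
The printed stretches differ at 1 base, T-2G (Hspa1a base first, counted back from the start), and the whole windows differ at 4 of 300 bases. Their transcribed parts are near copies as well, so a read is hard to place between them.

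Hspd1 and Hspe1 are shown as 1 stretch because they lie head to head. It falls between the Hspe1 start and the second RefSeq start of Hspd1, while the first Hspd1 start lies past the Hspe1 start, so that the transcripts overlap there. In the deposited models 215 bases separate the genes. The stretch reads on the strand of Hspe1 at chr1:55088019-55088147 and ends at the Hspe1 start. Its overlapping motif matches, in capitals, are counted in the windows of both genes (for Hspd1, that of the second start only).
Hspd1 and Hspe1: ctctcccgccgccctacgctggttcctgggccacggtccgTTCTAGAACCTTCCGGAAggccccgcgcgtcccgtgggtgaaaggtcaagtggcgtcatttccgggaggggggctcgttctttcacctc
Hspb1 and Hsph1 are shown because one was lower in both doxycycline libraries and the other was not. The Hspb1 stretch lies at chr5:135887779-135887848 on the plus strand. The Hsph1 stretch lies at chr5:149636337-149636406 on the minus strand and ends at its first RefSeq start.
Hspb1: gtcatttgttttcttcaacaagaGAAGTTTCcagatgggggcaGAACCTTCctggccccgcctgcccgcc
Hsph1: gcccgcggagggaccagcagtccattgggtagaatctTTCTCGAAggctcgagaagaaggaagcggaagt
The 3-unit match of Hsph1 lay after that start. A match describes letters only and was not tested as a binding site.

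**Figure D1:**
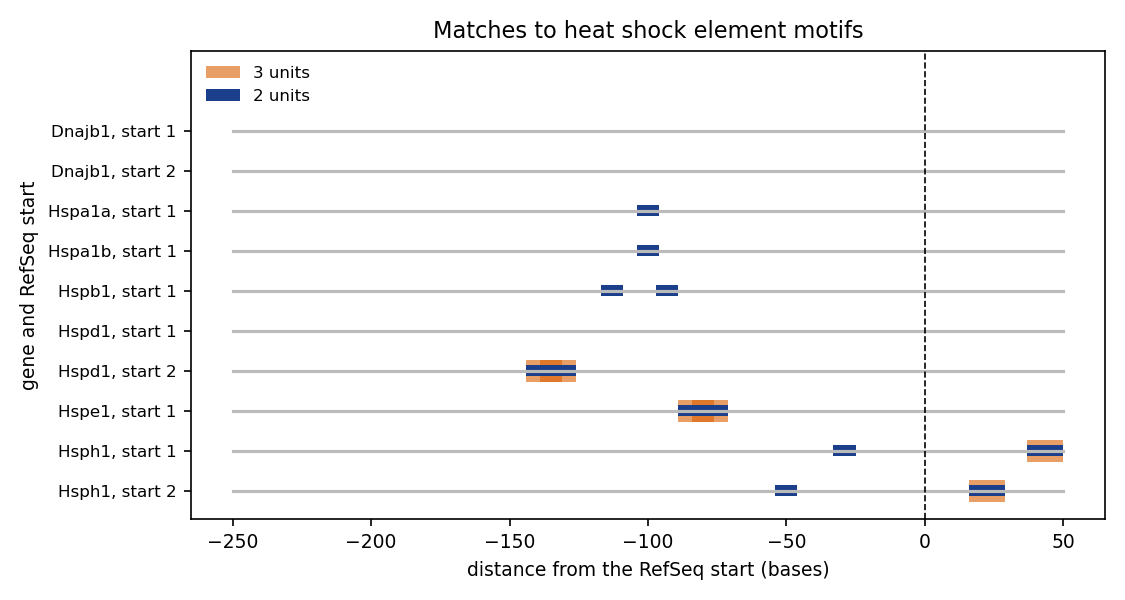
Positions of heat shock element motif matches in the RefSeq promoter windows, in bases from the transcript start (dashed line), with 1 grey line for each start of the 7 matched genes. Dark bars are 2-unit matches and orange bars 3-unit matches; Dnajb1 and the first Hspd1 start have none, and the Hspd1 and Hspe1 matches are the same bases seen from opposite starts.

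The read totals behind the RPKM values (reads relative to model length and library total) were 41632296 to 51006774, and the median reads over the 7915 measured genes were 1667 to 2038. A gene was called measured at a mean of at least 0.5 RPKM over the libraries and a model of at least 300 bp. Epithelial markers had a summed 54.8, 47.8 and 52.0 RPKM from uninduced through 48 h to grown-out cells, with 5 of 6 measured. Single markers varied within that sum. Epcam, the one not measured, had 0.0984, 0.0736 and 0.0270 RPKM. Krt19 had 13.6, 8.01 and 10.1 RPKM, and Krt18 14.2, 15.1 and 13.5 RPKM. Fibroblast markers summed to 1.27 to 1.58 RPKM (1 of 8 measured, Gsn, at 1.20 to 1.53 RPKM, with Lum and Pdgfrb at 0). Immune markers summed to 1.37 to 2.42 RPKM (2 of 8 measured, Cd14 and Cd68, with Csf1r and Lyz2 among those at 0). Endothelial markers summed to 0.212 to 0.224 RPKM (0 of 5 measured). Acinar and endocrine markers summed to 0.0811 to 0.0871 RPKM (0 of 9 measured, 8 at 0). The immune sum was 2.42, 1.37 and 1.37 RPKM from uninduced through 48 h to grown-out cells, and its part in the results was not tested. In that order Cd14 had 1.42, 0.451 and 0.469 RPKM, and Cd68 had 0.994, 0.916 and 0.901 RPKM. Nascent RNA of the targeted gene Pdx1 was 1.51-fold lower at 48 h than in uninduced cells (exact conditional binomial 95% interval 1.28 to 1.77, as for all folds below) and 1.12-fold lower after growing out (0.961 to 1.30, which spans no change). Because an shRNA cuts finished RNA, this does not measure the knockdown.

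Levels of the 10 genes spanned about 3 orders of magnitude, and the constitutive chaperones led. Of the genes, 7 were measured, and Hspb1, Hspa1b and Hspa1a lay under the minimum. Hspa8 stood at rank 20, 22 and 19 among the measured genes, from uninduced through 48 h to grown-out cells. Hsp90ab1 stood at rank 73, 55 and 43, and Hsp90aa1 at rank 152, 83 and 71. From high to low the order was Hspa8, Hsp90ab1, Hsp90aa1, Hspd1, Hspe1, Hsph1, Dnajb1, Hspb1, Hspa1b and Hspa1a in the uninduced and 48 h libraries. In grown-out cells Hspa1b stood above Hspb1, with overlapping intervals. All neighbours down to Hspb1 had intervals that did not overlap in any library. Together the 10 genes held 0.0733% of gene model reads in uninduced cells (exact binomial 95% interval 0.0724% to 0.0741%), 0.0749% at 48 h (0.0740% to 0.0758%) and 0.0903% after growing out (0.0892% to 0.0913%). The grown-out share lay above both others.

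**Figure D2:**
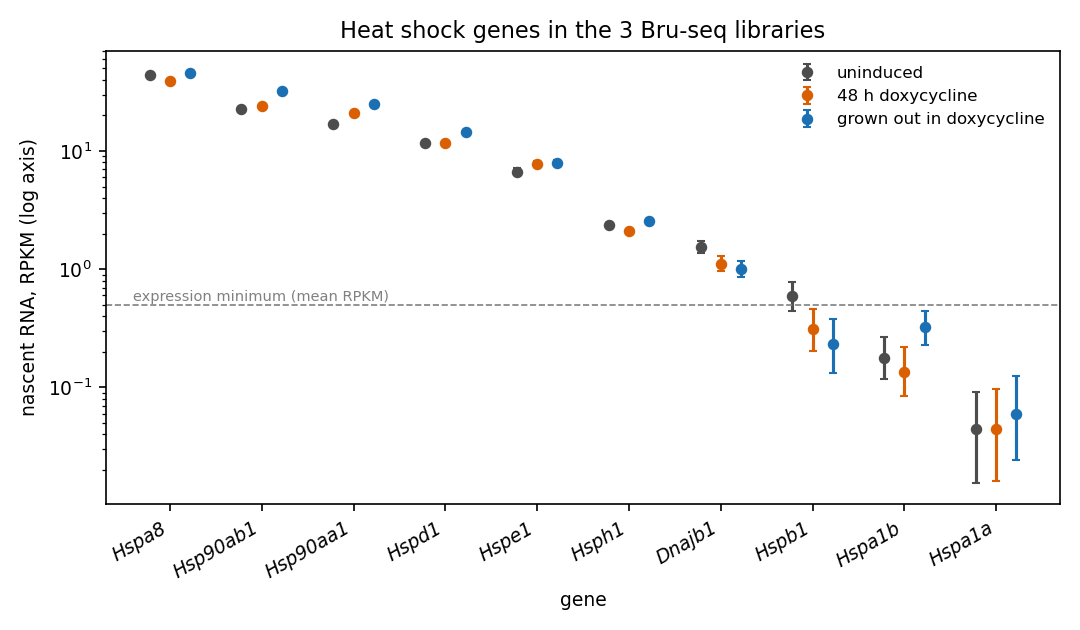
RPKM of the 10 genes on a log axis, 1 point for each library, with exact Poisson 95% intervals (counting error only). The dashed line is the minimum of 0.5, which applies to the mean over libraries; the Hsp90 genes are highest in the grown-out library, and Dnajb1 and Hspb1 are highest in the uninduced one.

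Hspa8 encodes HSC70, the constitutive cytosolic HSP70 that also strips clathrin coats from vesicles. Its level was 43.6 RPKM in uninduced cells (exact Poisson 95% interval 42.7 to 44.5, as for all levels below), 38.7 at 48 h (37.8 to 39.6) and 46.1 after growing out (45.0 to 47.1). The 48 h library was the lowest and the grown-out library the highest, with no overlap of the intervals. In a bulk library, more cells transcribing a gene and more transcription in each cell cannot be told apart. Hspa8 was 1.13-fold lower at 48 h than uninduced (1.09 to 1.16) and 1.06-fold higher after growing out (1.02 to 1.09).

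The inducible HSP70 genes Hspa1a and Hspa1b, which encode nearly the same protein and have no introns, were barely transcribed. Hspa1b (chromosome 17, 35093374 to 35096183, minus strand, in the deposited coordinates, whose build is not given in the sources used here and which differ from those of the RefSeq windows) had 25.6, 18.5 and 37.9 reads from uninduced through 48 h to grown-out cells, or 0.179, 0.136 and 0.324 RPKM. Hspa1a (chromosome 17, 35106304 to 35109101, minus strand) had 6.37, 6 and 7 reads, or 0.0446, 0.0443 and 0.0601 RPKM. Fractions of reads occur because the deposited counts are not all whole, and reads of near-identical copies can be split or placed on either, so the division between these genes is uncertain. Added together, their reads were 31.96, 24.5 and 44.9. The summed level was 1.72-fold higher in grown-out than in uninduced cells (1.07 to 2.80) and 2.13-fold higher than at 48 h (1.26 to 3.56), while 48 h against uninduced included no change, with a ratio of 0.809 (0.468 to 1.43). Even so, Hspa8 stood 120-fold above their summed RPKM in grown-out cells (89.2 to 164), against 195-fold in uninduced cells (138 to 285) and 214-fold at 48 h (142 to 325).

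The HSP90 genes were higher in grown-out cells. Hsp90aa1 encodes the stress-responsive form and Hsp90ab1 the form made in most cells at all times. Hsp90aa1 had 16.9 RPKM in uninduced cells (16.5 to 17.4), 21.0 at 48 h (20.4 to 21.6) and 25.1 after growing out (24.4 to 25.8). Hsp90ab1 had 22.8 RPKM (22.2 to 23.4), 24.1 (23.6 to 24.7) and 32.1 (31.4 to 32.8) in the same order. Each was lowest in uninduced and highest in grown-out cells, with no overlap of intervals. Hsp90aa1 was 1.24-fold higher at 48 h (1.19 to 1.29) and 1.48-fold higher after growing out (1.43 to 1.54) than uninduced. Hsp90ab1 was 1.06-fold higher at 48 h (1.02 to 1.10) and 1.41-fold higher after growing out (1.36 to 1.46). The log2 ratios of grown-out to uninduced, 0.57 for Hsp90aa1 and 0.49 for Hsp90ab1, lay at percentiles 98.7 and 97.8 of all measured genes.

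The balance of the HSP90 forms moved at 48 h. Per length, Hsp90aa1 was at 0.743 of Hsp90ab1 in uninduced cells (0.715 to 0.772), 0.870 at 48 h (0.839 to 0.902) and 0.782 after growing out (0.755 to 0.809). The ratio was 1.17-fold higher at 48 h than uninduced (1.11 to 1.23). For grown-out against uninduced cells it was 1.05-fold higher, with an interval that reached no change (0.999 to 1.11). Hsp90ab1 was above Hsp90aa1 in all 3 libraries.

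Hsph1 and Dnajb1 encode partners of HSP70, and they differed. Hsph1, the HSP110 exchange factor, had 2.38 RPKM in uninduced cells (2.29 to 2.48), 2.09 at 48 h (2.00 to 2.19) and 2.56 after growing out (2.45 to 2.68). It was 1.14-fold lower at 48 h (1.07 to 1.21) and 1.08-fold higher after growing out (1.01 to 1.14), so the 48 h library was the lowest, as for Hspa8. Dnajb1, a J-domain protein that loads clients onto HSP70, had 1.54 RPKM in uninduced cells (1.37 to 1.73), 1.12 at 48 h (0.970 to 1.28) and 1.01 after growing out (0.859 to 1.18). The uninduced library was the highest, and the intervals of the doxycycline libraries overlapped each other. Dnajb1 was 1.38-fold lower at 48 h (1.15 to 1.66) and 1.53-fold lower after growing out (1.255 to 1.87).

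Hspb1, which encodes the small heat shock protein HSP25, was the other gene at its highest in uninduced cells. Small heat shock proteins bind unfolding proteins without using ATP. Hspb1 (chromosome 5, 136363789 to 136365433, plus strand) had 50, 25 and 16 reads, or 0.596 RPKM in uninduced cells (0.442 to 0.786), 0.314 at 48 h (0.203 to 0.463) and 0.234 after growing out (0.134 to 0.379). It passed 0.5 RPKM in the uninduced library alone, so it is outside the counts of measured genes. It was 1.90-fold lower at 48 h (1.15 to 3.20) and 2.55-fold lower after growing out (1.43 to 4.80). The grown-out value was 1.34-fold below the 48 h value, with an interval that spanned no change (0.690 to 2.69).

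The mitochondrial pair Hspd1 (HSP60) and Hspe1 (HSP10) was higher in grown-out cells and parted at 48 h. Hspd1 (chromosome 1, 55134678 to 55144776, minus strand) had 11.8 RPKM in uninduced cells (11.5 to 12.1), 11.6 at 48 h (11.3 to 11.9) and 14.4 after growing out (14.0 to 14.7). Hspe1 (chromosome 1, 55144992 to 55148161, plus strand) had 6.70 RPKM (6.30 to 7.11), 7.83 (7.39 to 8.29) and 7.91 (7.44 to 8.41). For Hspd1 the grown-out library stood alone above the others, whereas for Hspe1 both doxycycline libraries lay above the uninduced one. Hspd1 was 1.22-fold higher in grown-out cells (1.18 to 1.26), and its 48 h ratio of 0.987 included no change (0.952 to 1.02). Hspe1 was 1.17-fold higher at 48 h (1.08 to 1.27) and 1.18-fold higher after growing out (1.08 to 1.29). Hspd1 stood at 1.76 times the Hspe1 density in uninduced cells (1.65 to 1.88), 1.48 at 48 h (1.39 to 1.58) and 1.81 after growing out (1.70 to 1.94). The 48 h ratio was 0.844 of the uninduced one (0.771 to 0.925). The Hspd1 model is 10099 bp long and the Hspe1 model 3170 bp, and the part of length in this was not tested.

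**Figure D3:**
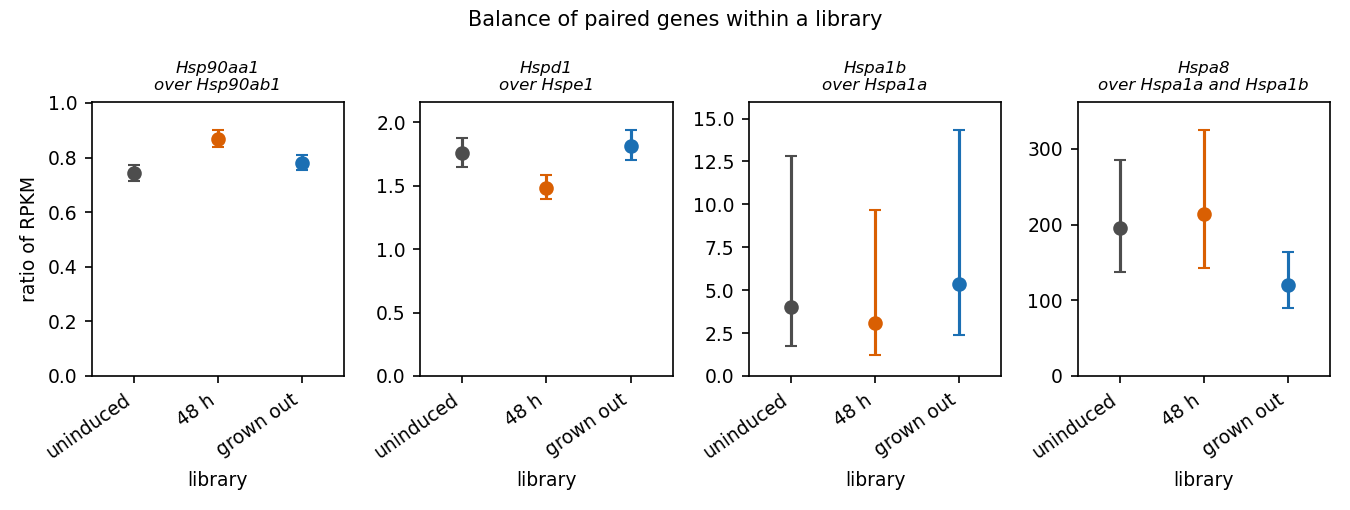
Ratio of RPKM within each library for 4 pairs (each panel from 0, on its own scale), with exact conditional binomial 95% intervals. The 48 h point stands above the others for Hsp90aa1 over Hsp90ab1 and below them for Hspd1 over Hspe1; the Hspa1b over Hspa1a intervals are wide and overlap.

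A gene was called where its ratio was at least 25% above 1 or at most 0.8, with an interval that excluded no change. At 48 h against uninduced, 0 of the 7 measured genes were called higher, where the background over all 7915 measured genes was 3.51%, and 1, Dnajb1, was called lower, against 10.6%. In grown-out against uninduced cells 2 were called higher, Hsp90aa1 and Hsp90ab1, against 7.54%, and 1, Dnajb1, lower, against 9.93%. No measured member reached 2-fold in either direction in either comparison, which 0.0758% (higher) and 0.821% (lower) of genes did at 48 h and 0.19% and 0.796% in grown-out cells. With only the interval required, 3 were higher and 3 lower at 48 h (background 30.1% and 30%), and 6 were higher and 1 lower in grown-out cells (33.6% and 29.5%). Counts by interval alone, here and below, depend on read depth, for which the background was not matched. Hspa8 had 7362 to 8728 reads and Dnajb1 157 to 294, beside a median of 1667 to 2038 over measured genes. The median log2 ratio of the 7 was -0.02 at 48 h and 0.24 in grown-out cells, beside 0.00 and 0.01 over all measured genes. The grown-out set is thus split, with 6 genes above the uninduced level and Dnajb1 below it. Both comparisons use the same uninduced library and are not independent.

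Limits of the call matter for Hsp90aa1 at 48 h, which lay at 1.24-fold and passed the 25% mark when libraries were scaled by the median of ratios. Dnajb1 left the counts when a mean of at least 2 RPKM was required.

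**Figure D4:**
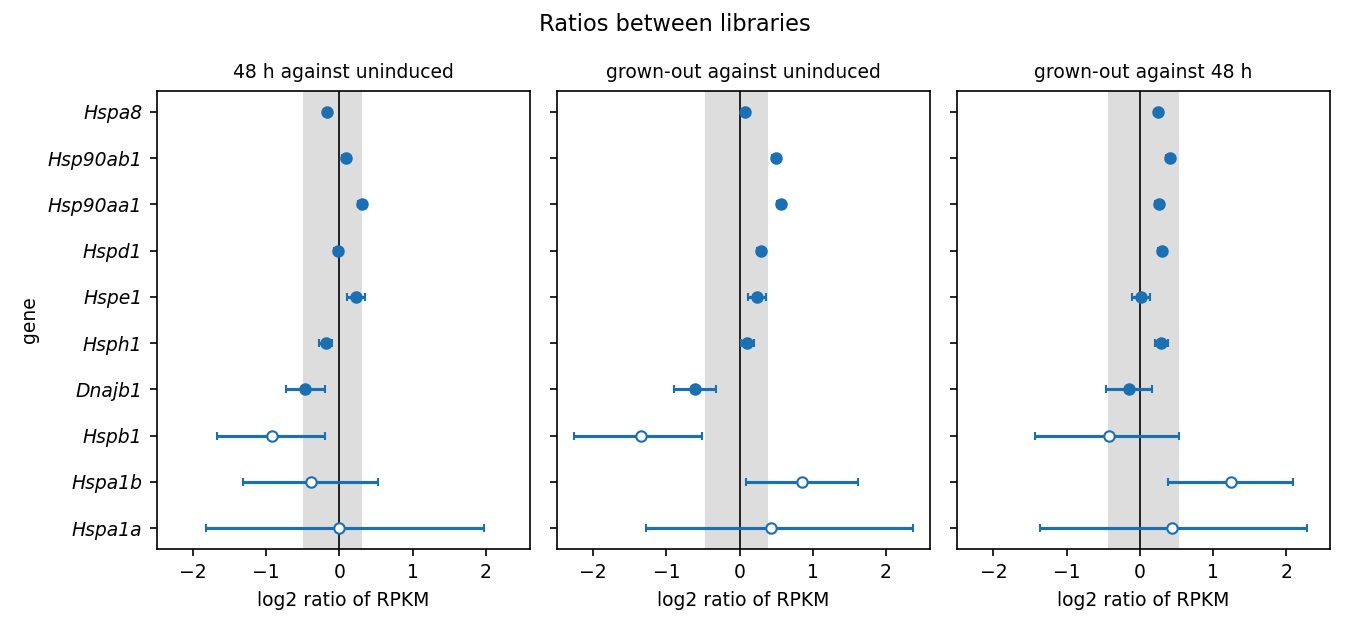
Log2 ratio of RPKM for each gene in the 3 comparisons, with exact conditional binomial 95% intervals; open points are genes under the expression minimum. The grey band spans the 5th to 95th percentile of all measured genes (on RPKM + 0.05), whereas the points are plain ratios. In grown-out against uninduced cells the Hsp90 genes and, as open points with wide intervals, Hspa1a and Hspa1b lie to its right. Dnajb1 and Hspb1 lie to its left. On RPKM + 0.05, Hspa1a was at 0.22 (percentile 84.6), inside the band, so its place to the right reflects the unlike measures.

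Long and short exposure were compared directly, grown-out cells over 48 h cells; each library already served above. Hsp90ab1 was 1.33-fold higher (1.29 to 1.38) and was the 1 measured gene called, against a background of 13.4% higher and 9.29% lower. None reached 2-fold, which 0.771% of genes did upward and 0.417% downward. Hspd1 was 1.23-fold (1.19 to 1.28), Hsph1 1.23-fold (1.15 to 1.30), Hsp90aa1 1.19-fold (1.15 to 1.24) and Hspa8 1.19-fold higher (1.15 to 1.23). Hspe1, at 1.01-fold (0.929 to 1.10), and Dnajb1, with a ratio of 0.906 (0.729 to 1.12), included no change. In all, 5 were higher beyond counting error, where 35.6% of genes were, and 0 lower, where 32% were. The median log2 ratio was 0.26, beside 0.01 over all measured genes. A separate list held 10 reference genes: Actb, Gapdh, Tbp, Hprt, Polr2a, Ppia, Rplp0, Tubb5, Pgk1 and B2m. Of these, 6 were higher and 2 lower beyond counting error in this comparison, with a median log2 ratio of 0.15. In grown-out against uninduced cells, 3 of them were higher and 2 lower, with a median of 0.03.

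Of the heat shock factor genes listed, Hsf1 and Hsf2 were measured, and Hsf4 and Hsf5 lay under the minimum. Hsf1, the main heat shock factor, had 1.97 RPKM in uninduced cells (1.89 to 2.05), 2.30 at 48 h (2.21 to 2.39) and 2.85 after growing out (2.74 to 2.95). It was highest in grown-out cells, 1.44-fold above the uninduced level (1.37 to 1.52), and 1.17-fold above it at 48 h (1.10 to 1.23). Hsf2, a related factor, had 2.57, 2.79 and 2.88 RPKM. Hsbp1, which encodes a small protein that binds HSF1, was 1.19-fold higher at 48 h (1.03 to 1.36) and 1.18-fold lower after growing out (1.01 to 1.38). These values are of nascent RNA and do not show the activity of the factors.

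The wider chaperone network was counted over 9 lists of 85 genes, of which 65 were measured. At 48 h, 3 were called higher (background 3.51%) and 3 lower (10.6%), and the median log2 ratio was 0.10, beside 0.00 over all genes. In grown-out cells 7 were called higher (7.54%) and 1 lower (9.93%), with a median of 0.11, beside 0.01. Grown-out over 48 h cells, 10 were called higher (13.4%) and 4 lower (9.29%). Among HSP90 co-chaperones (13 measured), Fkbp5, a prolyl isomerase that binds steroid receptor complexes, was 1.47-fold lower at 48 h (1.42 to 1.52) and 1.19-fold higher after growing out (1.15 to 1.22). Its grown-out level was 1.74-fold above that at 48 h (1.68 to 1.81). Stub1, a ubiquitin ligase that marks chaperone clients, was 1.35-fold higher at 48 h (1.09 to 1.67) and 1.42-fold higher after growing out (1.14 to 1.77). Stip1, which bridges HSP70 and HSP90, was 1.22-fold higher in grown-out cells (1.17 to 1.28). The list had 1 gene called higher and 1 lower at 48 h, and 1 higher and 0 lower in grown-out cells.

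Other partners of HSP70 showed few calls. Over all measured genes, 3.51% were called higher and 10.6% lower at 48 h, and 7.54% higher and 9.93% lower in grown-out cells. Of 3 other measured HSP70 and HSP110 genes, Hspa4 was 1.251-fold higher at 48 h (1.22 to 1.28) and 1.17-fold higher after growing out (1.14 to 1.19). Hspa4l was 1.11-fold lower at 48 h (1.08 to 1.14) and 1.22-fold higher after growing out (1.19 to 1.249). Of 10 measured J-domain genes, 2 were called lower at 48 h, Dnajb4 by 1.403-fold (1.33 to 1.48) and Dnajb2 by 1.398-fold (1.16 to 1.70), and 1 was called higher in grown-out cells, Dnajc21 by 1.27-fold (1.20 to 1.35). Dnajc2 was 1.17-fold higher there (1.11 to 1.23). Among 7 exchange factors, Bag6 was called higher in grown-out cells, by 1.34-fold (1.24 to 1.44). Bag2 and Hspbp1 were 1.15-fold and 1.13-fold higher at 48 h, under the call, and Bag5 was 1.19-fold lower in grown-out cells (0.935 to 1.53, which spans no change). On the list of other small heat shock genes, which was not checked against protein sequence, Hspb6 and Hspb11 were measured and neither was called. Their 48 h ratios were 0.905 and 0.956, and their grown-out ratios 1.22 and 0.956.

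In the mitochondrion, 3 of 14 measured chaperone and protease genes were called higher in grown-out cells (background 7.54%) and 1 lower (9.93%), while 0 were called higher (3.51%) or lower (10.6%) at 48 h. Lonp1, a matrix protease, was 1.38-fold (1.24 to 1.53), Trap1, the mitochondrial HSP90, 1.37-fold (1.27 to 1.47) and Dnaja3, a mitochondrial J-domain protein, 1.33-fold higher. Dnajc19 was 1.29-fold lower; Dnaja3 and Dnajc19 lie outside the naming rule and were chosen after their values were seen. At 48 h Grpel1, an exchange factor, was 1.22-fold higher (1.11 to 1.35) and Htra2 1.22-fold lower (0.952 to 1.56, which spans no change). None of the 8 CCT chaperonin genes was called, but 7 were higher beyond counting error in each doxycycline library, where 30.1% and 33.6% of all genes were. Cct5 was 1.23-fold higher at 48 h (1.16 to 1.29) and 1.19-fold higher after growing out (1.13 to 1.254), and Cct6a 1.17-fold and 1.14-fold higher. Of 5 prefoldin genes, Vbp1 was called higher at 48 h, by 1.27-fold (1.16 to 1.39). Pfdn4 was at 1.09-fold (0.981 to 1.22) there, and in grown-out cells Pfdn2 was 1.13-fold higher (1.06 to 1.20) and Pfdn4 1.104-fold lower (0.980 to 1.24, which spans no change).

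**Figure D5:**
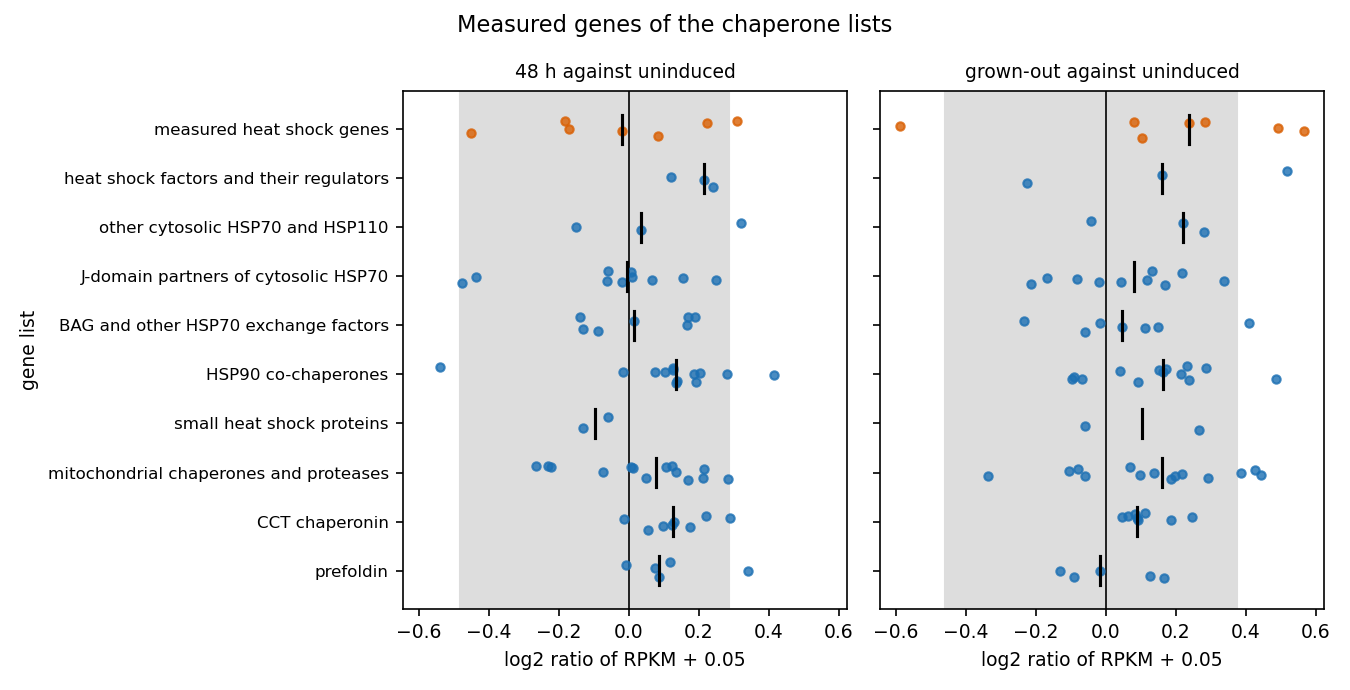
Log2 ratio of RPKM + 0.05 for the measured heat shock genes (orange) and for the measured genes of 9 related chaperone lists (blue), 1 point for each gene, with list medians as black bars and random vertical spread. The grey band spans the 5th to 95th percentile of all measured genes; most points lie inside it, and in grown-out against uninduced cells Hsp90aa1, Hsp90ab1, Hsf1, Stub1, Lonp1, Trap1, Bag6 and Dnaja3 lie above it and Dnajb1 below it.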

How the data were processed

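Bru-seq libraries were aligned and counted by the submitters, whose processing notes name bedtools 2.16.2, TopHat 1.4.1, Bowtie 0.12.8 and CASAVA 1.8.2, with no settings. The deposited estimated counts are, per the file headers, reads of a whole gene model (introns and exons together), and 47.3% to 48.5% of values above 0 were whole within 0.01; they were rounded for intervals. RPKM values as deposited scale these reads by model length and read total, per the file headers. The notes name build hg19, but the models carry mouse symbols; the build of the coordinates is not given in the sources used here. RefSeq promoters are GRCm38.p6. Hspa8, Hspd1, Hspe1 and the Hsp90 genes have pseudogene copies in the mouse genome, so their counts depend on how multiply mapped reads were placed, which is not given in the sources used here.

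Left out were 138 models with a repeated symbol or a span over 3 Mb. Ratios are of plain RPKM, with exact conditional binomial 95% intervals; levels have exact Poisson intervals. Changes in the ratio of paired genes have exact conditional odds ratio intervals. Log2 ratios used RPKM plus 0.05, so changes of low genes are understated. With 1 library per condition no p-value was computed. Intervals cover counting error only, and reads were not counted by molecular identifiers. Interval code was tested on simulated data. Scaling factors came from edgeR 4.0.16 (TMM and median of ratios); other steps used Python 3.11.15, numpy 2.4.6 and scipy 1.17.1. Named were the 10 genes, Hsf1, Hsf2, Pdx1 and, in each related list and each comparison with the uninduced library, the 2 measured genes with the largest absolute log2 ratio. Hsf4, Hsf5, Dnaja3, Dnajc19, marker genes and reference genes are named outside this rule. The members and lists were chosen with earlier results of these data known.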

Additional observations from a re-analysis of the deposited data

Results flagged for a closer look

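Hspa8 and Hsph1 lay below the uninduced level at 48 h and above it in grown-out cells, with both intervals excluding no change. Neither gene was called in either comparison. By the interval alone, 30% of all measured genes were lower at 48 h and 33.6% were higher in grown-out cells. The share of genes that met both conditions is not given here, so the pattern is not shown to be unusual. Between the doxycycline libraries, grown-out over 48 h, the log2 ratio was 0.25 for Hspa8 and 0.29 for Hsph1. With 1 library per condition, this difference was not tested, and both comparisons share the uninduced library.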

How the results depend on the processing

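No paired analysis was possible because each condition had 1 library. TMM and median of ratios scaling shifted log2 ratios by 0.01 to 0.03. Among counts of the 10 genes called, median of ratios scaling gave 1 higher at 48 h (0 as reported), and TMM and median of ratios scaling each gave 2 higher in grown-out against 48 h cells (1 as reported). With no minimum RPKM, 2 were lower at 48 h, 2 were lower in grown-out cells and 2 were higher in grown-out against 48 h cells, and the 48 h median log2 ratio was -0.094. With a mean of at least 2 RPKM, 0 were lower in either comparison with uninduced cells. For the related chaperone lists, no minimum gave 5 higher and 6 lower at 48 h, 3 lower in grown-out cells and 7 lower in grown-out against 48 h cells. A mean of at least 2 RPKM left 1 lower at 48 h, 2 higher and 0 lower in grown-out cells, and 3 higher and 1 lower in grown-out against 48 h cells; a length of at least 3000 bp left 1 higher at 48 h. Fewer or more genes enter under these filters. Counts that changed by at most 1.5 times are left out above. Among them, no minimum gave 3 of the 10 genes higher in grown-out against uninduced cells (2 as reported). For the related lists in that comparison, TMM scaling gave 8 higher and median of ratios scaling 9 (7 as reported). As a ratio of reads, not per length, Hspd1 over Hspe1 was 5.60, 4.73 and 5.78 from uninduced through 48 h to grown-out cells, and Hspa8 over Hspa1a and Hspa1b was 168 in grown-out cells, because the models differ in length. A pseudocount of 0.5 could not change the counts of genes called, because calls used plain RPKM ratios. Among log2 ratios of single genes, it moved 1 outside the counting error interval of its plain ratio, and 29 stayed inside theirs. Some of the 29 still changed by more than 1.5 times, all for Hspa1a, Hspa1b or Hspb1. For example, Hspb1 in grown-out against uninduced cells went from -1.19 to -0.579. The moved one was Hspa1b in grown-out against 48 h cells, from 1.00 to 0.372. Adding the Hspa1a and Hspa1b reads left 7 genes measured, so it could not change the counts either. Depth limits Hspa1a, Hspa1b and Hspb1, with at most 50 reads in a library.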
